A study of Mus musculus with 6 samples.

Results

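The miR-26 and miR-181 families were examined in RNA bound to the Argonaute protein AGO2 in mouse cortex at postnatal day 14. Their members were taken by name as 6 mature 5p forms, mmu-miR-26a-5p, mmu-miR-26b-5p, mmu-miR-181a-5p, mmu-miR-181b-5p, mmu-miR-181c-5p and mmu-miR-181d-5p, of 1978 miRNAs listed in the count tables. The mice carried VGLUT2-Cre, a driver active in glutamatergic neurons, and a conditional Spy3-AGO2 allele, whose tag couples AGO2 to SpyCatcher3 on a resin. The libraries analysed are the 2 replicates of the AGO2 miRNA group, labelled as pyramidal neurons of the cortex, and all values come from mice of that 1 genotype. The series also holds 2 AGO2 target libraries and 2 input libraries of whole lysate from the same genotype, whose single libraries were not analysed here. The target side was used as 1 deposited list of 2197 peaks. No group without the tag or without Cre was analysed here, so no level in control mice can be set beside the values. Separate or pooled animals are not stated for the replicates, so SDs measure only the spread between these libraries, which may be technical. The p-values set the difference between these libraries against read counting error alone.

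The 2 miRNA libraries held 66854 and 75658 counts in replicates 1 and 2, and 412 miRNAs had a count in both. Neuronal marker miRNAs (miR-132-3p, miR-124-3p, miR-9-5p and miR-128-3p) were all counted and held 26.6% and 26.8% of the counts. The 3 oligodendrocyte markers held 0.0673% and 0.0793%, the 4 endothelial and mural markers 0.151% and 0.145%, the 5 microglia and blood markers 0.0209% and 0.0317%, and the 2 erythroid markers 0.0150% and 0.0119%. Of these marker miRNAs only miR-223-3p, a myeloid miRNA, was at 0 in both libraries. No set of astrocyte markers was among these, and the part of other cell types in the levels of the 2 families was not tested. In such bulk samples, fewer cells of a type and less RNA per cell cannot be told apart.

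A miRNA guides AGO2 to messenger RNAs that pair with its seed, and AGO2 with its partners then lowers the stability or translation of those messages. Members of a family have the same seed and so can share targets. The miR-26 genes lie inside genes of the Ctdsp family, which encode small phosphatases that help to hold back neuronal genes in cells that are not neurons, and miR-26b is known from zebrafish to repress its own host gene as neurons form. The miR-181 family is best known for setting the sensitivity of the T cell receptor in mouse thymocytes, and in cultured hippocampal neurons miR-181a has been linked to the AMPA receptor subunit encoded by Gria2.

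The mature sequences are shown first because members of a family differ only outside the seed, and the counts turn on how those near-identical forms divide. They are RefSeq sequences on GRCm38.p6, written 5′ to 3′, and the capitals mark the seed, bases 2 to 8.
miR-26a-5p: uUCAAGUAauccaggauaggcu
miR-26b-5p: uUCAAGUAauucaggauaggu
miR-181a-5p: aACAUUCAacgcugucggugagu
miR-181b-5p: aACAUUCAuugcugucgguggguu
miR-181c-5p: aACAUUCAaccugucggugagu
miR-181d-5p: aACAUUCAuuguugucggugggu
The forms are 21 to 24 bases long, so that a read covers a whole form and no length correction was made. Both miR-26 members carried the seed UCAAGUA, and the 4 miR-181 members carried ACAUUCA. Of the 1679 listed miRNAs with a RefSeq sequence, no other one had either seed.

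Counted from 1 at the 5′ end, miR-26b-5p differs from miR-26a-5p by C11U and lacks C21, so that it is 1 base shorter. miR-181b-5p differs from miR-181a-5p by A9U, C10U and A21G and has 1 more base at its end. miR-181c-5p equals miR-181a-5p once G11 is taken out. miR-181d-5p differs from miR-181b-5p by C12U and lacks its last base. The 2 miR-26 members are thus 2 edits apart, and pairs within the miR-181 family are 1 to 5 edits apart, against 12 to 14 between the families. How reads were divided between forms this close is not given in the sources used here, so the split within a family carries an uncertainty that the intervals below do not include.

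The 6 forms come from 9 hairpin genes. miR-26a-5p is made by Mir26a-1 (chr9:119031796-119031885, plus strand) within the span of Ctdspl, and by Mir26a-2 (chr10:126995530-126995613, plus strand) within that of Ctdsp2. miR-26b-5p comes from Mir26b (chr1:74394310-74394394, plus strand) within Ctdsp1. All 3 hosts are on the strand of their hairpin. The miR-181 genes form 3 pairs. Mir181a-1 and Mir181b-1 lie 97 bases apart on the plus strand (chr1:137966455-137966718) in no other annotated span. Mir181a-2 and Mir181b-2 lie 1019 bases apart on the plus strand (chr2:38852735-38853918), inside the lncRNA Nr6a1os on the same strand and inside Nr6a1 on the opposite one. Mir181c and Mir181d lie 85 bases apart on the minus strand (chr8:84178716-84178961) in no other annotated span. Exons were not in the tables used here, so the position of a hairpin within its host was not given a finer class. Since miR-26a-5p, miR-181a-5p and miR-181b-5p each have 2 genes with the same mature sequence, their counts do not separate the genes.

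The 6 forms together held 4.61% of the counts in replicate 1 and 4.51% in replicate 2, while they were 1.46% of the 412 miRNAs counted in both. The exact 95% interval was 4.45 to 4.77% in replicate 1 and 4.36 to 4.66% in replicate 2. Intervals here are Clopper-Pearson and cover read counting error only, and because duplicate reads were kept, 1 molecule can give several counts.

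miR-26a-5p was the most abundant of the 6, with 1669 counts in replicate 1 and 1934 in replicate 2. Its share was 2.50% (exact 95% interval 2.38 to 2.62) and 2.56% (2.44 to 2.67), and it ranked 6 among all miRNAs in both libraries. That level was 95.0 times the median mean share of the 412 miRNAs counted in both. miR-26b-5p had 88 and 92 counts in replicates 1 and 2, or 0.127% ± 0.00709 of the counts (SD, n = 2), and ranked 108 by mean share. It was still 4.76 times that median.

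miR-181a-5p led the miR-181 family with 660 counts in replicate 1 and 693 in replicate 2. Its share was 0.952% ± 0.0504 (SD, n = 2), rank 25 by mean share. miR-181b-5p had 415 and 381 counts, or 0.562% ± 0.0829 (SD, n = 2), rank 41. It was the only one of the 6 with fewer counts in the larger library, replicate 2. miR-181c-5p had 200 and 241 counts, or 0.309% ± 0.0137 (SD, n = 2), rank 59, and miR-181d-5p had 49 and 68 counts, or 0.0816% ± 0.0117 (SD, n = 2), rank 142.

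**Figure D1:**
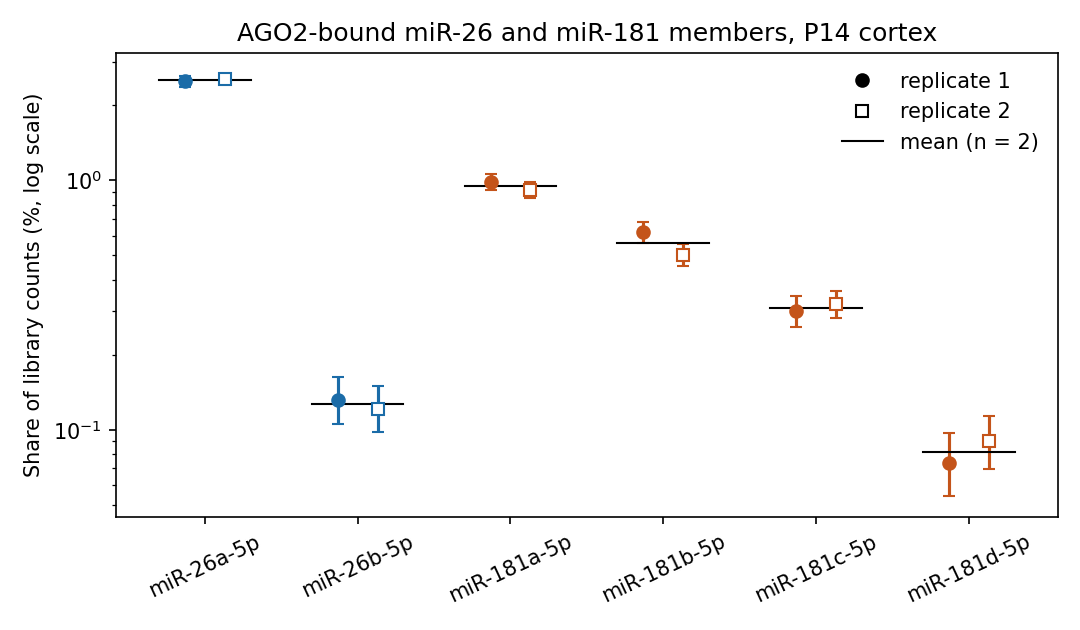
Share of library counts (%, log axis) of each of the 6 members in replicate 1 (filled circles) and replicate 2 (open squares), with exact 95% intervals as bars and the mean of the 2 libraries as a line. miR-26a-5p sits near 2.53%, miR-181a-5p near 0.952% and miR-181d-5p lowest near 0.0816%.

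The order from miR-26a-5p through miR-181a-5p, miR-181b-5p, miR-181c-5p and miR-26b-5p to miR-181d-5p was the same in both libraries. Each gap between neighbours in that order was larger than the larger SD of the pair, and the smallest relative to it, 3.06 times, was that between miR-181b-5p and miR-181c-5p. The counting intervals of neighbours were separate in both libraries for 4 of the 5 steps. The exception was the step between miR-26b-5p and miR-181d-5p, whose intervals were separate in replicate 1 and overlapped in replicate 2. The libraries number only 2, so no test of the order was made.

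Among all miRNAs, miR-26a-5p stood clear of its neighbours, with miR-136-5p above it at 2.76% ± 0.00377 and let-7c-5p below it at 2.34% ± 0.0279 (SD, n = 2 each). Both gaps were larger than the SDs involved. The others were not resolved from the miRNAs next to them. miR-181a-5p lay between miR-135a-5p at 0.960% and miR-138-5p at 0.941%, and miR-181b-5p between miR-30e-5p at 0.565% and miR-410-3p at 0.515%, in each case with gaps smaller than the larger SD. The same held for miR-181c-5p beside miR-376b-3p at 0.323% and miR-331-3p at 0.301%, for miR-26b-5p beside miR-126a-3p at 0.130% and miR-330-5p at 0.125%, and for miR-181d-5p beside miR-340-5p at 0.0843% and miR-17-5p at 0.0808%. These miRNAs are the nearest in mean share over the 2 libraries, which says nothing else about them.

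**Figure D2:**
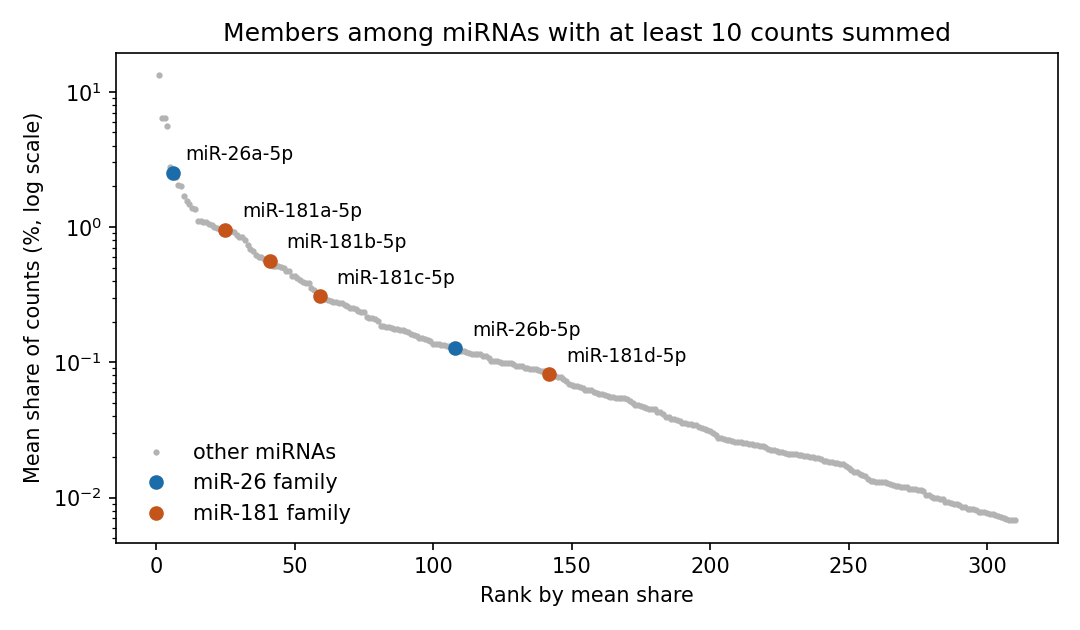
Mean share of counts over the 2 libraries (%, log axis) against rank for 310 miRNAs (10 or more counts in all), with miR-26 members in blue and miR-181 members in orange. miR-26a-5p lies at rank 6, the miR-181 members at ranks 25, 41, 59 and 142, and miR-26b-5p at rank 108.

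The families differed in how their counts were divided. The miR-26 family was almost wholly miR-26a-5p, which made up 95.0% of 1757 family counts in replicate 1 (exact 95% interval 93.9 to 96.0) and 95.5% of 2026 in replicate 2 (94.5 to 96.3). The ratio of miR-26a-5p to miR-26b-5p was 19.0 in replicate 1 and 21.0 in replicate 2. In the miR-181 family, miR-181a-5p made up 49.8% of 1324 counts in replicate 1 (47.1 to 52.6) and 50.1% of 1383 in replicate 2 (47.4 to 52.8). It therefore had about as many counts (660 and 693) as the 3 other members together (664 and 690). miR-181b-5p followed with 29.4% ± 2.68 of the family, miR-181c-5p with 16.3% ± 1.64 and miR-181d-5p with 4.31% ± 0.860 (SD, n = 2 each). The forms made by the chromosome 1 and chromosome 2 pairs, miR-181a-5p and miR-181b-5p, had 4.32 and 3.48 times the counts of the forms from the chromosome 8 pair in replicates 1 and 2.

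**Figure D3:**
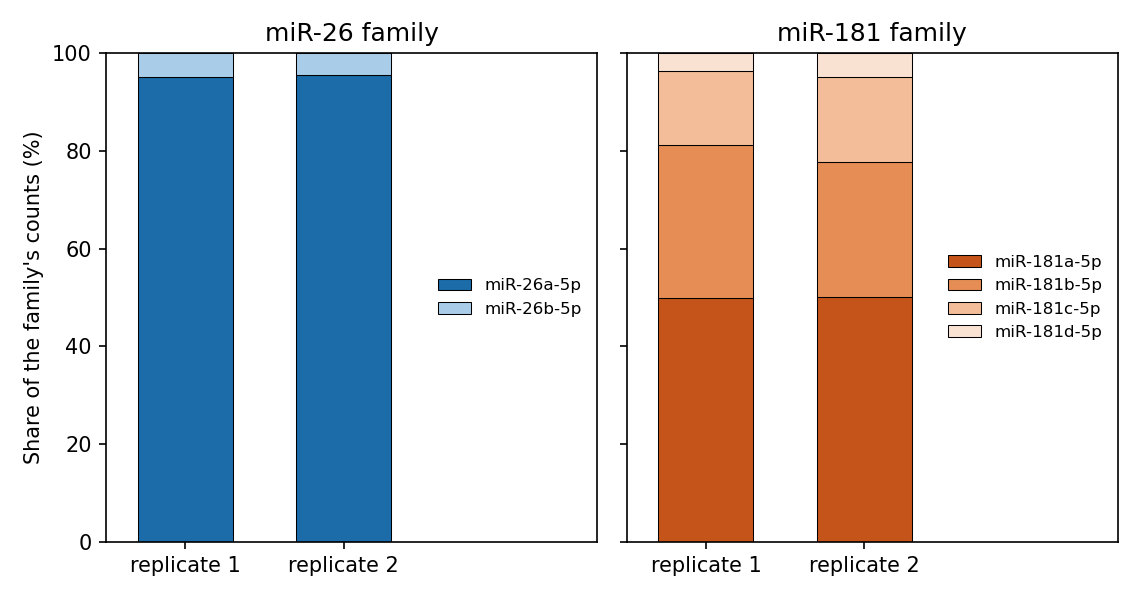
Share of each family's counts (%) taken by each member in replicates 1 and 2, as stacked bars for the miR-26 family (left) and the miR-181 family (right). miR-26a-5p fills 95.0% and 95.5% of its family, while miR-181a-5p fills 49.8% and 50.1% of its own.

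As whole families, miR-26 held 2.65% ± 0.0352 and miR-181 1.90% ± 0.108 of the counts (SD, n = 2 each). The ratio of miR-26 to miR-181 was 1.33 in replicate 1 and 1.46 in replicate 2. Between the leading members the gap was wider, with miR-26a-5p at 2.53 and 2.79 times miR-181a-5p. The second members went the other way, since miR-181b-5p had 4.72 and 4.14 times the counts of miR-26b-5p. The lowest member, miR-181d-5p, had fewer counts than miR-26b-5p in both libraries (49 and 68 against 88 and 92).

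Grouping the listed miRNAs by their RefSeq seed gave 15 groups with at least 500 counts and at least 2 members with 10 counts or more. RefSeq sequences were matched for miRNAs holding 88.9% and 88.6% of the counts in replicates 1 and 2, so some groups were summed without all their members. A group with an unmatched member can also be missing from the 15, so ranks hold only among the groups as summed. Ordered by the share of the leading member, the miR-26 family ranked 4 and the miR-181 family ranked 11 of the 15. Next to the miR-26 family were the groups of miR-329-3p, with its leader at 95.3%, and of miR-132-3p, at 94.2%. Next below miR-181a-5p was miR-30c-5p at 49.5% of its group as summed. That group left out miR-30b-5p (692 and 805 counts in replicates 1 and 2) and miR-30d-5p (532 and 674), which had no matched sequence. Of these, miR-30b-5p had more counts than miR-30c-5p (595 and 738). The leader and share therefore do not describe the whole miR-30 family. Further below were miR-29a-3p at 45.6% of its group and let-7c-5p at 23.3%. These shares are a description and were not tested.

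The other arm of each hairpin, which the choice of members did not use, was then counted. The 3p arms of the miR-26 hairpins were nearly absent. miR-26a-1-3p had 1 count in replicate 1 and 0 in replicate 2, miR-26a-2-3p had 0 and 1, and miR-26b-3p had 0 in both. Together they made up 0.0569% of the 1758 counts from both arms in replicate 1 (exact 95% interval 0.00144 to 0.317) and 0.0493% of 2027 in replicate 2 (0.00125 to 0.275). A count of 0 for miR-26b-3p allowed a 3p share of up to 4.11% and 3.93% in replicates 1 and 2, since miR-26b itself had few counts. Both values are the upper ends of exact 95% intervals.

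The Mir26a-1 and Mir181a-1 hairpins are shown because their 3p arms behaved differently in the counts. They lie on the plus strand (chr9:119031796-119031885 and chr1:137966455-137966541, GRCm38.p6), are written 5′ to 3′, and the capitals mark the mature 5p and 3p forms.
Mir26a-1: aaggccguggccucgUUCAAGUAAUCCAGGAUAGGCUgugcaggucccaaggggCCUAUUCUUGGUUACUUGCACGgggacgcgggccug
Mir181a-1: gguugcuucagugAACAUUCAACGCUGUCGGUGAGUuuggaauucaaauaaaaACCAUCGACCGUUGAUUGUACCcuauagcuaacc
From Mir26a-1 the 3p form had 1 count in replicate 1 and 0 in replicate 2. From Mir181a-1 the 3p form, miR-181a-1-3p, had 15 counts in replicate 1 and 23 in replicate 2.

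In the miR-181 family the 3p arms were present and uneven. They made up 2.07% of 1352 counts in replicate 1 (exact 95% interval 1.38 to 2.98) and 4.29% of 1445 in replicate 2 (3.31 to 5.47), both above the miR-26 intervals. miR-181c-3p had 12 and 38 counts in replicates 1 and 2, which was 5.66% (2.96 to 9.68) and 13.6% (9.82 to 18.2) of the counts from both arms of Mir181c. miR-181b-1-3p had 1 and 0 counts, and miR-181b-2-3p and miR-181d-3p had 0 in both libraries. For miR-181d the count of 0 allowed a 3p share of up to 7.25% and 5.28% in replicates 1 and 2 (upper ends of exact 95% intervals). A share like that of miR-181a, 2.22% and 3.35%, was therefore not resolved from 0 in either library.

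The 3p forms of the miR-181a genes can be told apart by sequence, unlike their 5p form. The 3 forms are shown with the seed in capitals, as RefSeq sequences on GRCm38.p6.
miR-181a-1-3p: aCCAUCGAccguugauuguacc
miR-181a-2-3p: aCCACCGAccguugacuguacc
miR-181c-3p: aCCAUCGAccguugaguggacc
miR-181a-2-3p differs from miR-181a-1-3p by U5C, inside the seed, and U16C. miR-181c-3p differs from miR-181a-1-3p by U16G and U19G and keeps its seed. miR-181a-1-3p had 15 and 23 counts in replicates 1 and 2, whereas miR-181a-2-3p had 0 and 1. The 3p form from the chromosome 1 gene thus made up 38 of the 39 counts of the pair. What this means for the 5p counts of the 2 genes was not tested, since an arm's share can differ between hairpins.

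**Figure D4:**
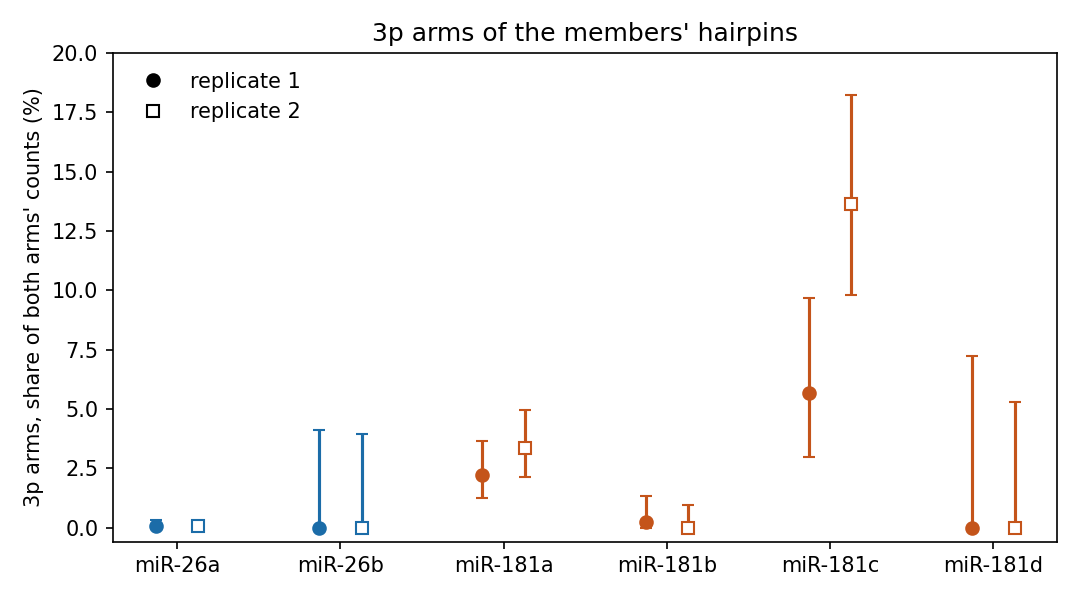
Share of the counts from both arms (%) that fell on the 3p arms, for the hairpins of each member, in replicate 1 (filled circles) and replicate 2 (open squares) with exact 95% intervals. miR-181c stands highest at 5.66% and 13.6%, miR-181a lies at 2.22% and 3.35%, and the points of miR-26a, miR-26b, miR-181b and miR-181d lie at or near 0, with wide intervals for miR-26b and miR-181d.

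Over the 82 groups of hairpins with at least 200 counts from both arms, the less counted arm had a median share of 1.66% (quartiles 0.131 and 8.88) of the counts summed over the libraries. By the same measure miR-26a had 0.0555%, rank 17 from the lowest, under the lower quartile. That rests on 1 3p count in each library. The exact 95% intervals of its share, 0.00152 to 0.333% in replicate 1 and 0.00131 to 0.288% in replicate 2, include that quartile. miR-181b had 0.125%, rank 21, from a single 3p count. Its place against the lower quartile rests on 1 library, since its share was 0.240% in replicate 1 (exact 95% interval 0.00609 to 1.33) and 0 in replicate 2 (upper bound 0.964%). miR-181a, with 2.80%, was above the median. miR-181c had 10.2%, and its place against the upper quartile rests on replicate 2, where its share was 13.6%, against 5.66% in replicate 1.

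The replicates gave a check on each member. An exact binomial test of every miRNA with at least 10 counts summed, which compares the 2 libraries and no conditions, called 4 of 310 miRNAs (1.29%) after Benjamini-Hochberg adjustment over all of them. Of the 6 members it called 0, and 1 had an unadjusted p under 0.05, as had 46 of the 310 miRNAs (14.8%). The members' count is therefore near the background. That member was miR-181b-5p, with 0.504% in replicate 2 and 0.621% in replicate 1, a log2 ratio of -0.30 (exact binomial adjusted p = 0.0919). With the library totals scaled by edgeR's TMM factors, miR-181b-5p did pass (exact binomial adjusted p = 0.0413). miR-26a-5p had a log2 ratio of 0.03 and miR-181a-5p one of -0.11 (exact binomial adjusted p = 0.850 and 0.583). The ratios of miR-26b-5p, miR-181c-5p and miR-181d-5p were -0.11, 0.09 and 0.29. The median size of this log2 ratio was 0.14 over 148 well-counted miRNAs (100 or more counts in all).

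Of the 3p forms, 2 had enough counts for this test. miR-181a-1-3p had a log2 ratio of 0.42 (exact binomial adjusted p = 0.794). miR-181c-3p was 2.80 times as high in replicate 2 as in replicate 1 by share, a log2 ratio of 1.44 that missed the threshold (exact binomial adjusted p = 0.0526). It passed when at least 50 counts summed were required (exact binomial adjusted p = 0.0329) and with TMM factors (0.0444). Its counts summed to exactly 50, so it only just met that minimum. The minimum left its unadjusted p as it was and lowered only the number of miRNAs adjusted over. Its 5p partner miR-181c-5p had a ratio of 1.06. The split of the 4 miR-181 members differed between the libraries at the edge of the threshold (Fisher's exact test on the 4 members, unadjusted p = 0.0488), with miR-181b-5p lower and miR-181c-5p and miR-181d-5p higher in replicate 2. The split of the miR-26 family gave an unadjusted Fisher's exact p = 0.540. Both tests treat reads as independent, and with duplicate reads kept their p-values are too small.

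**Figure D5:**
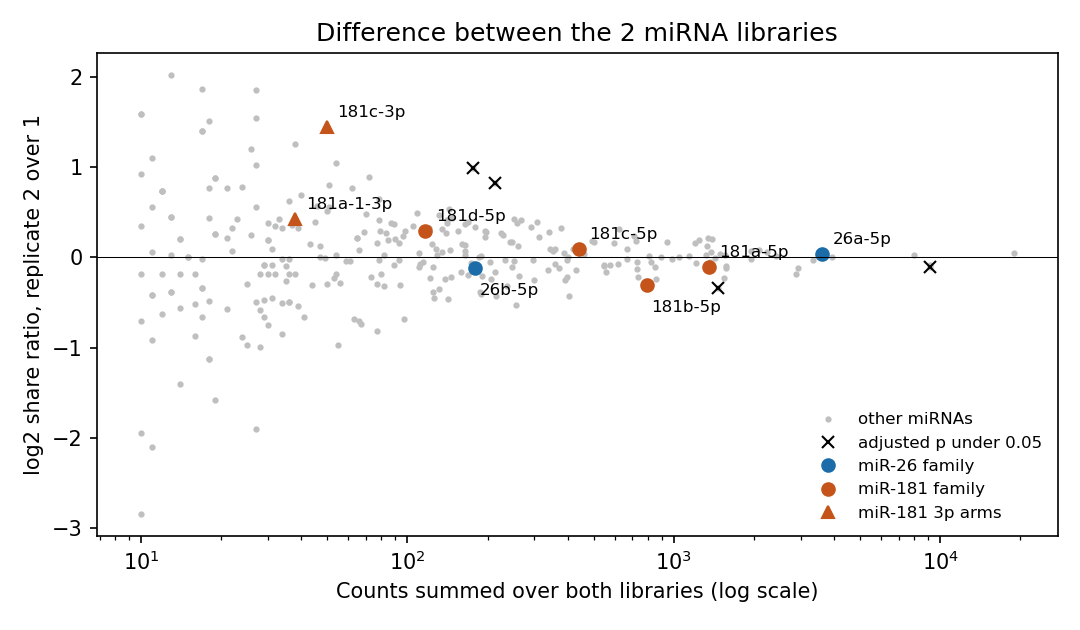
log2 ratio of the share in replicate 2 over replicate 1 against counts summed (log axis) for 310 miRNAs, with miR-26 members in blue, miR-181 members in orange, miR-181 3p forms as triangles and the 4 miRNAs with an adjusted p under 0.05 as crosses. The 6 members lie between -0.30 and 0.29, and miR-181c-3p lies at 1.44.

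The deposited peaks were then searched for the genes tied to these families. None of the 9 hairpin genes was overlapped by a peak, the nearest peak to any of them being 91790 bases away, from Mir26a-2. No peak of the 2197 overlapped a miRNA gene in the annotation. The host genes Ctdspl, Ctdsp2 and Ctdsp1, which have been reported as miR-26 targets, had 0 peaks, and so did Nr6a1, a nuclear receptor gene. Since 4.3% of all protein-coding genes had a peak, a count of 0 in 4 genes does not set them apart.

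Of 26 genes reported as miR-26 targets in other settings, 2 had a peak (7.69%, exact 95% interval 0.946 to 25.1), against 941 of 21887 protein-coding genes (4.3%). Gsk3b, which encodes a kinase of Wnt and insulin signalling, had 4 peaks, all on its own strand and in the last 10% of its span. They are chr16:38240735-38240766, chr16:38243210-38243296, chr16:38243471-38243535 and chr16:38245036-38245205 on mm10, 32 to 170 bases wide, with midpoints 964 to 5334 bases before the end of the gene. Mtdh, a gene linked to tumour cell growth, had 2 peaks (chr15:34141943-34141988 and chr15:34143482-34143522), both in the last 10% of its span on the assumption that the peaks are on its sense strand. The other 24 genes, among them Ezh2, Bdnf and Rps6ka2, had none.

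Of 26 genes reported as miR-181 targets, 3 had a peak (11.5%, exact 95% interval 2.45 to 30.2), against the same 4.3% of protein-coding genes. Gria2 had 3 peaks on its own strand (chr3:80686543-80686633, chr3:80687828-80687949 and chr3:80687979-80688058), 80 to 122 bases wide and 5138 to 6568 bases before the end of the gene. Nlk, a kinase gene reported as a miR-181 target in human natural killer cells, had 1 peak (chr11:78567813-78567851). Hspa5, which encodes the chaperone BiP of the endoplasmic reticulum, had 1 (chr2:34776130-34776174), which also lay in the span of Rabepk on the opposite strand. The peaks of Gria2, Nlk and Hspa5 all lay in the last 10% of the span. The other 23 genes, among them Creb1, Bcl2 and Dusp6, had none.

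Under stricter rules the counts stayed small. With at least 2 peaks required, 2 of the miR-26 and 1 of the miR-181 genes had them, against 1.36% of protein-coding genes. With peaks in the last 10% of the span only, the counts were 2 and 3, against 2.85%. With peaks in a single gene span only, they were 2 and 2, against 3.71%. The intervals of both lists include the share over all protein-coding genes, so neither count is set apart from it, and the lists were not matched on expression or length. No genome sequence was used here, so whether any of these peaks holds a match to UCAAGUA or ACAUUCA was not tested, and no peak is assigned to either family.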

How the data were processed

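The deposited counts are whole-number read counts per mature miRNA, not normalized by the authors. By the name the deposited files carry, duplicate reads were not removed. The row for unassigned reads held 0 counts and was left out. The authors' deposited peak list carries a score of 0 for every peak, so it ranks nothing. Per the submitters' processing notes, the build is mm10 and the tools named are deepTools 3.1.3, DESeq2 1.36.0, STAR 2.5.2a, cutadapt 2.10, UMI-tools and Bowtie2 2.4.2, whose roles and order are not given. The peak caller is not given in the sources used here.

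Shares are counts over the library total, with mean and SD over the 2 libraries and exact 95% intervals (SciPy 1.17.1). A count of 0 was given the upper bound of its exact interval. Libraries were compared with an exact two-sided binomial test over miRNAs with at least 10 counts summed, with a threshold of 0.05 after Benjamini-Hochberg adjustment. The test was checked on simulated libraries that varied by read counting error alone. That check does not cover duplicate reads or other spread between libraries. The log2 ratios between libraries add 0.5 to each count. Alternatives used edgeR 4.0.16 and DESeq2 1.42.0 scaling. A peak was credited to the genes whose GRCm38.p6 span holds its midpoint, with gene strands from RefSeq; peaks inside small RNA genes were not credited to hosts. The members, target lists and tests were chosen with earlier results of these data known, the target lists from general knowledge. Besides members, the text names neighbours in share, 3p arms, host genes and list genes. The list genes without a peak and the miRNAs leading the compared seed groups were named after their values were seen. So were miR-30b-5p and miR-30d-5p.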

Additional observations from a re-analysis of the deposited data

How the results depend on the processing

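Of the values recomputed under other settings, 60 were classed as unchanged, 11 moved and 3 newly passed the threshold. Unchanged meant within the SD for shares and on the same side of the threshold for tests. For counts of miRNAs or genes it meant near the main count. A further 29 could not have moved by the measure used, namely 26 that leave out 1 of 2 replicates and 3 that rescale the ratio of the families, and say nothing about stability. Leaving miR-128-3p out of the denominator raised every share, to 3.06% for the miR-26 family and 2.19% for the miR-181 family, as fewer counts in the denominator must. TMM and DESeq2 scaling moved no member or family share by more than its SD. Both scalings kept the geometric mean of the 2 library totals, so a mean share could hardly move under them. Those shares are among the 60 and say little about stability. Leaving out each replicate in turn gave 2.63 to 2.68% for miR-26 and 1.83 to 1.98% for miR-181. The 3p share of the miR-181 hairpins, 3.18% over both libraries, was 2.07% without replicate 2 and 4.29% without replicate 1. The number of miRNAs differing between the libraries was 4, but 7 with at least 50 counts summed and 11 with TMM factors; the cause was not tested. Over these settings the exact binomial adjusted p ranged from 0.0413 to 0.164 for miR-181b-5p and from 0.0329 to 0.0939 for miR-181c-3p, and the log2 ratio of miR-26a-5p, 0.03, was close to 0 with TMM factors. Requiring at least 2 peaks per gene left 1 of the 3 miR-181 target genes, Gria2. Seed sites in peaks were not run because no genome sequence was used here. No paired analysis was possible because the counts form 1 group, with no other group to pair by replicate number. Depth limits miR-26b-5p and miR-181d-5p most, and their 3p arms could not be measured.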
